A study of Capra hircus with 2 samples.

Results

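The miR-29 family was followed in small RNA libraries of goat testicular cells sorted by CD49f (integrin alpha-6), a surface protein of spermatogonial stem cells in the mouse. Its members were the listed entries whose miRNA name, without species prefix, copy number and arm, was miR-29a, miR-29b, miR-29c or miR-29d, which made 4 of 1329 miRNA names. They filled 9 entries in the CD49f-positive list and 8 in the CD49f-negative list. MicroRNAs (miRNAs) are short RNAs that guide the repression of messenger RNAs, and each is cut from the 5p or the 3p arm of a hairpin precursor. In human and mouse cells miR-29 is known for repressing fibrillar collagens, elastin and other matrix genes, and the DNA methyltransferases DNMT3A and DNMT3B. Methyltransferases of this kind set new DNA methylation in male germ cells of the mouse. Target choice rests mainly on the seed, bases 2 to 8 of the mature strand, which the family members share.

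The CD49f-positive and the CD49f-negative cells came from testes of Saanen dairy goats aged 5 months, 3 testes from 3 animals, and both groups had passed enzymatic digestion, a night of plating meant to remove attaching Sertoli and myoid cells, and magnetic sorting. With 1 library per group, nothing below could be checked against replicates, and p-values are not given. The design text mentions sequencing in triplicate. Whether animals were pooled is not stated. The comparison asks how the family differs between CD49f-positive and CD49f-negative cells.

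The CD49f-positive list held 8196507 reads under miRNA names and the CD49f-negative list 3064462. Marker miRNAs of other cell types differed between the libraries in their share of the read total, some of them only slightly. miR-34b/c and miR-449a/b, abundant in meiotic and later germ cells, took 2.25% of CD49f-positive reads against 11.4% of CD49f-negative reads. The endothelial miR-126 took 1.43% and 0.755%, miR-143 and miR-145 of smooth muscle and myoid cells 22.6% and 18.9%, and the mesenchymal miR-199a, miR-199b and miR-214 0.489% and 0.560%. Most of the smooth muscle and myoid sum was miR-143-3p, with 1813390 of 1848350 CD49f-positive reads and 564567 of 580494 CD49f-negative reads. The arms in this sum differed in direction. As log2 of the CD49f-positive divided by the CD49f-negative share, miR-143-3p was at 0.26 and miR-145-3p at 0.56. On the same scale miR-143-5p was at -0.76 and miR-145-5p at -1.24. Red blood cell miRNAs took 0.296% and 0.372%, white blood cell ones 0.0197% and 0.0248%, the epithelial miR-200 group 0.00316% and 0.00933%, and the gonadal miR-202 0.0320% and 0.0823%. The white blood cell arms also differed in direction, with miR-155-5p at 0.59, miR-142-5p at -0.79, miR-142-3p at -0.96 and miR-150-5p at -0.72. The direction of small differences depends on the scaling. With TMM scaling, described below, miR-199b-5p went from -0.19 to 0.26 and miR-451-5p from -0.29 to 0.15, while miR-214-5p and miR-144-3p stayed below equal shares. Every name in these marker lists was found, so none was at 0 in both libraries. CD49f itself, a protein-coding gene, is not measured in miRNA lists, so the sort could not be checked by its own marker. The part of any of these cells in the miR-29 values was not tested, and with bulk RNA fewer cells of a type cannot be told apart from less miRNA per cell.

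The 3p reads are shown because they carry the shared seed, printed in capitals. Each is the most abundant sequence listed for its entry in the CD49f-positive library, except that of miR-29d, which only the CD49f-negative library listed.
miR-29a-3p: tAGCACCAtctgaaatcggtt
miR-29b-3p: tAGCACCAtttgaaatcagt
miR-29c-3p: tAGCACCAtttgaaatcggtt
miR-29d-3p: tAGCACCAtttgaaatcgaa

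The annotated cattle sequences of the 4 members, read from the T that opens these reads, shared their first 9 bases. Counted from that T, miR-29c-3p differed from miR-29a-3p by C10T alone, and miR-29b-3p differed from miR-29a-3p by C10T, G18A, T21G and A22T. miR-29d-3p differed from miR-29c-3p by G19A. In the cattle entry miR-29a-3p starts 1 base earlier than the listed goat read, and its bases 2 to 8 are then TAGCACC, against AGCACCA in the read. No entry outside the family had a listed read with the seed AGCACCA, in either library.

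The family lay at 4 hairpins in the deposited coordinates, whose genome build is not given in the sources used here. miR-29a was at chr4:92111188-92111274 and miR-29b-1 at chr4:92111586-92111670, both on the minus strand with 311 bases between them. miR-29b-2 was at chr16:73197050-73197133 and miR-29c at chr16:73197546-73197659, both on the plus strand with 412 bases between them. The RefSeq annotation of assembly ARS1.2 lists MIR29A, MIR29B and MIR29C, and each had the chromosome and length of 1 deposited hairpin. The fourth, miR-29b-1, had no such match. The hairpins of miR-29a and miR-29c follow as deposited for the CD49f-positive library, because their arms set the results below. Capitals mark the stretches of the listed 5p and 3p reads.
miR-29a hairpin: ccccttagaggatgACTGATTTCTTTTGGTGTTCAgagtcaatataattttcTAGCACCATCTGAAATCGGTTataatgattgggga
miR-29c hairpin: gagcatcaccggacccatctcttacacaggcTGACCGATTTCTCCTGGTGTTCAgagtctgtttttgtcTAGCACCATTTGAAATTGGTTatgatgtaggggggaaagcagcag

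The family held nearly equal shares of both libraries. It had 9837 reads in CD49f-positive cells, or 1200.2 in 1000000 named miRNA reads (RPM; 95% interval 1177 to 1224), and 3974 reads in CD49f-negative cells, or 1297 RPM (1257 to 1338). Dividing the CD49f-positive by the CD49f-negative share gave a log2 ratio of -0.11 (95% interval -0.17 to -0.06). It was 0.33 with TMM scaling, a method less sensitive to a few dominant miRNAs, so its direction depends on the scaling. TMM adds 0.445 to every log2 ratio here and median-of-ratios scaling adds 0.60. Intervals of shares are exact Clopper-Pearson and those of ratios exact conditional binomial. They reflect the counting error of 1 library per group alone. They may be too narrow even for that, because without molecular identifiers PCR copies are not independent molecules.

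miR-29a-3p made up nearly the whole family. It had 9383 reads in CD49f-positive cells, against 3783 in CD49f-negative cells, which was 95.4% (94.95 to 95.79) and 95.2% (94.5 to 95.8) of all miR-29 reads. Its level was 1145 RPM in CD49f-positive cells, against 1234 in CD49f-negative cells, rank 53 of the 1455 combinations of name and arm listed and rank 55 of 1291. The log2 ratio was -0.11 (-0.16 to -0.05), and 0.34 with TMM scaling. The listed 21-base sequence held 37.3% of its entry among CD49f-positive reads (3494 copies), against 37.5% among CD49f-negative reads (1418 copies), so the most abundant end variant took nearly the same share in both.

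miR-29b-3p and miR-29c-3p were far scarcer. miR-29b-3p had 190.5 reads in CD49f-positive cells, against 70.2 in CD49f-negative cells, or 23.2 (20.0 to 26.7) and 22.9 (17.8 to 28.9) RPM. Its log2 ratio was 0.02 (-0.38 to 0.44), and 0.46 under TMM. miR-29c-3p had 156.6 reads in CD49f-positive cells, against 82.9 in CD49f-negative cells, or 19.1 (16.3 to 22.4) and 27.1 (21.6 to 33.6) RPM. Its log2 ratio was -0.51 (-0.89 to -0.10), short of 2-fold, and -0.06 under TMM or 0.09 under median-of-ratios scaling. With the reads as the authors divided them, the counting intervals of these 2 levels overlapped within each library, so their order was not resolved. Their order also depends on that division, as given below. miR-29d-3p, known from cattle, had 0 reads in the CD49f-positive list and 1 in the CD49f-negative list, both at or under a floor of 3 reads.

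Fractional counts arise because the authors split a read that matches several hairpins. The mature miR-29b-3p read matched both miR-29b hairpins with 0 mismatches. Its reads were divided into 99.2 at miR-29b-1 and 91.2 at miR-29b-2 in CD49f-positive cells, and into 35.6 and 34.6 in CD49f-negative cells. The source of mature miR-29b-3p, chromosome 4 or 16, was therefore not resolved by the 3p reads. The log2 ratio was 0.05 (-0.52 to 0.63) at miR-29b-1 and -0.03 (-0.62 to 0.57) at miR-29b-2. Mismatched reads were equal at both hairpins, with 26.5 at each in CD49f-positive cells and 8.83 at each in CD49f-negative cells. Because reads were divided between them, these ratios are not independent measurements of the 2 hairpins, and their intervals leave out the division.

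**Figure D1:**
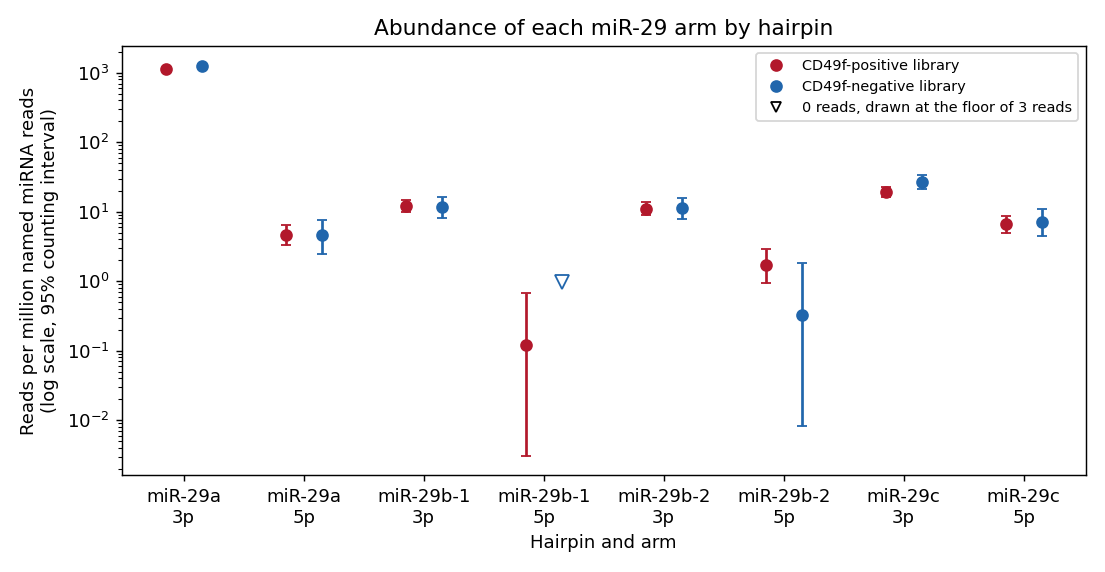
RPM (log scale) of each arm of the 4 miR-29 hairpins, with the CD49f-positive library left of the CD49f-negative library; bars are 95% counting intervals and the open triangle marks 0 reads, drawn at the floor of 3 reads. miR-29a 3p, at 1144 and 1234 RPM, stands above all other arms, and the intervals of both libraries overlap for every other arm with reads in both.

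The 5p arms, the scarcer strands of these hairpins, gave the only miR-29 result past the size rule, and it rested on a name. A miRNA was called when it had 100 or more summed reads, differed 2-fold or more and had an interval without equal shares. Of 7 miR-29 arms, 4 reached 100 reads: the 3p arms of miR-29a, miR-29b and miR-29c, and miR-29a-5p. Of these 1 was called higher, miR-29a-5p, and 0 lower, against 2.01% called higher and 24.8% called lower among all 298 miRNAs with 100 reads (9.06% and 13.4% with TMM, 11.4% and 9.4% with median-of-ratios scaling). Summed by name, miR-29a-5p had 92 reads in CD49f-positive cells, against 14 in CD49f-negative cells, with a log2 ratio of 1.25 (0.48 to 2.22), and 1.70 under TMM. Under the name miR-29c-5p there were 0 reads in the CD49f-positive list and 22 in the CD49f-negative list. The interval of its log2 ratio reached up to -3.87.

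When reads were summed by hairpin, the 5p log2 ratios came near equal shares, at -0.01 for miR-29a and -0.14 for miR-29c with the read total. These sums, like miR-29c-5p by name, had too few reads for the rule to apply. In the CD49f-positive list 54 of the 92 reads lay at the miR-29c hairpin on chromosome 16, under a platypus name for miR-29a. The CD49f-negative list gave the same arm of the same hairpin a hamster name for miR-29c. The listed reads are shown to make this visible, with bases 2 to 8 in capitals.
miR-29a hairpin 5p, CD49f-positive: aCTGATTTcttttggtgttca
miR-29a hairpin 5p, CD49f-negative: aCTGATTTcttttggtgttc
miR-29c hairpin 5p, CD49f-positive: tGACCGATttctcctggtgttct
miR-29c hairpin 5p, CD49f-negative: tGACCGATttctcctggtgttc

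The last base of the CD49f-positive miR-29c 5p read differed from the hairpin by A23T, counted from the 5′ end of the read. The reads of the miR-29a and miR-29c hairpins had different bases 2 to 8, and over all 4 hairpins the listed 5p reads had 4 different seeds, while the 3p reads had 1.

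At the miR-29a hairpin the 5p arm had 38 reads in CD49f-positive cells, against 14 in CD49f-negative cells, or 4.64 and 4.57 RPM, with a log2 ratio of -0.01 (-0.90 to 1.02), and 0.43 under TMM. At the miR-29c hairpin it had 54 reads in CD49f-positive cells, against 22 in CD49f-negative cells, or 6.59 and 7.18 RPM, with a log2 ratio of -0.14 (-0.86 to 0.66), and 0.30 under TMM. By hairpin miR-29c, both arms together, made 2.14% (1.87 to 2.45) of the family in CD49f-positive cells, against 2.64% (2.17 to 3.19) in CD49f-negative cells. Neither hairpin reached 100 summed 5p reads, and each interval included equal shares. With the read total the miR-29a interval reaches 2-fold at its upper end, and the miR-29c interval stays short of 2-fold at both ends. Under TMM both reach 2-fold at the upper end, at -0.45 to 1.46 for miR-29a and -0.42 to 1.11 for miR-29c. A difference inside these intervals was not detectable at this depth. Over 5p reads with no mismatch the log2 ratios were -0.20 (-1.10 to 0.84) for the miR-29a hairpin and -0.21 (-1.18 to 0.93) for the miR-29c hairpin.

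**Figure D2:**
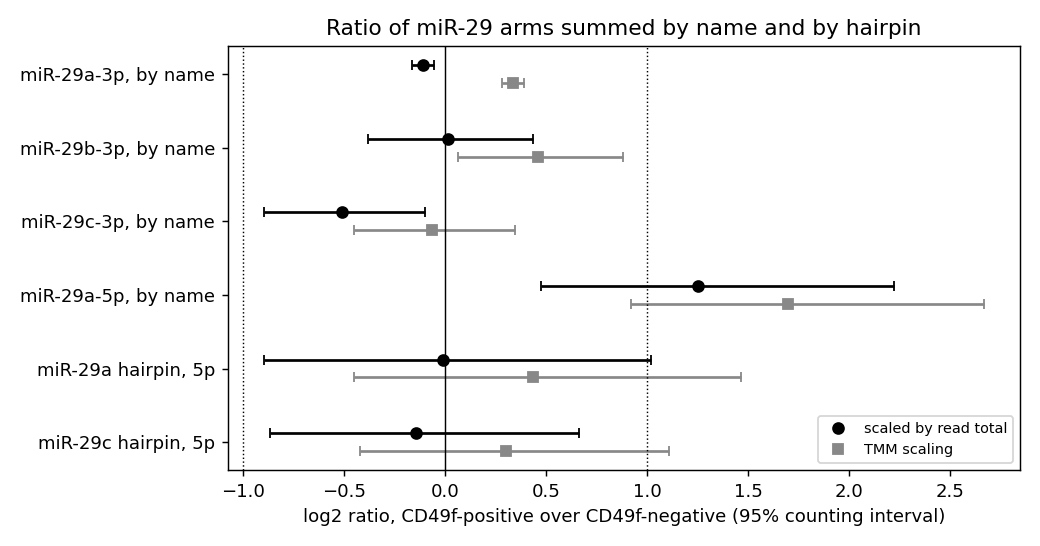
Log2 of the CD49f-positive divided by the CD49f-negative share for miR-29 arms summed by name, and for 5p arms summed by hairpin, with 95% counting intervals; black circles are scaled by the read total, grey squares by TMM, and dotted lines mark 2-fold. By name miR-29a-5p lies past 2-fold at 1.25, while the 5p arms of the miR-29a and miR-29c hairpins lie at -0.01 and -0.14.

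The 5p strand of miR-29b was separable by hairpin, unlike its 3p strand. miR-29b-2 5p had 14 reads in CD49f-positive cells, against 1 in CD49f-negative cells, with a log2 ratio of 1.85 (-0.33 to 7.79), too few reads for a call. miR-29b-1 5p had 1 read in CD49f-positive cells, against 0 in CD49f-negative cells.

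The hairpins differed in how many of their reads came from the 5p arm. The 5p arm gave 0.404% (0.286 to 0.554) of miR-29a hairpin reads in CD49f-positive cells, against 0.369% (0.202 to 0.618) in CD49f-negative cells. For the miR-29c hairpin it gave 25.6% (19.8 to 32.0) in CD49f-positive cells, against 21.0% (13.6 to 30.0) in CD49f-negative cells. Within each library these intervals were far apart, while the 2 libraries overlapped for each hairpin. Among hairpins at known loci with at least 100 reads, the minor arm took a median of 0.718% over 189 hairpins in CD49f-positive cells, against 0.941% over 165 in CD49f-negative cells, and 18 hairpins in each library had a larger minor-arm share than miR-29c. The miR-29b-2 hairpin had 13.3% (7.49 to 21.4) 5p reads in CD49f-positive cells, against 2.81% (0.0703 to 14.5) in CD49f-negative cells, and miR-29b-1 had 0.998% and 0 of 35.6 reads, for which the exact upper limit was 9.74%. The listed 3p read matches both miR-29b hairpins, so these miR-29b shares depend on how the authors divided the 3p reads. Their intervals do not include that uncertainty. The same holds for the miR-29c shares, because the listed miR-29c-3p read could also be divided with miR-29a, as given below.

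miR-29c-3p stood apart in its mismatches to the genome used by the authors. Of its reads, 1 of 156.6 in CD49f-positive cells had no mismatch, against 0.25 of 82.9 in CD49f-negative cells, so 99.4% and 99.7% were mismatched. For miR-29a-3p the share was 16.3% and 21.6%, and for miR-29b-3p 27.8% and 25.2%. The median over arms with at least 100 reads was 21.3% over 245 arms in CD49f-positive cells, against 27.0% over 206 in CD49f-negative cells, and 5 and 3 arms had a larger share than miR-29c-3p. The listed miR-29c-3p read differed from the deposited hairpin by T17C in both libraries, counted from the 5′ end of the read with the hairpin's base first. It differed from the annotated cattle miR-29c by 0 bases. This listed read had 127 copies in CD49f-positive cells, against 62 in CD49f-negative cells.

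The same listed miR-29c-3p read was 1 mismatch away from the miR-29c hairpin and 1 from the miR-29a hairpin, so its reads could be divided between both names. On the assumption that the authors divided its copies equally, and with all of them given to miR-29c-3p, that arm had 220.1 reads in CD49f-positive cells, against 113.9 in CD49f-negative cells, with a log2 ratio of -0.47 (-0.80 to -0.13). The 5p arm then gave 19.7% of miR-29c hairpin reads in CD49f-positive cells, against 16.2% in CD49f-negative cells. The CD49f-positive value lies just under the interval given above for the reads as the authors divided them. miR-29a-3p remained at a log2 ratio of -0.11 (-0.16 to -0.05). Under this assumption miR-29c-3p was at 37.2 RPM (30.7 to 44.7) in CD49f-negative cells, above the interval of miR-29b-3p (17.8 to 28.9). In CD49f-positive cells it was at 26.9 RPM (23.4 to 30.6), which overlapped that of miR-29b-3p (20.0 to 26.7).

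**Figure D3:**
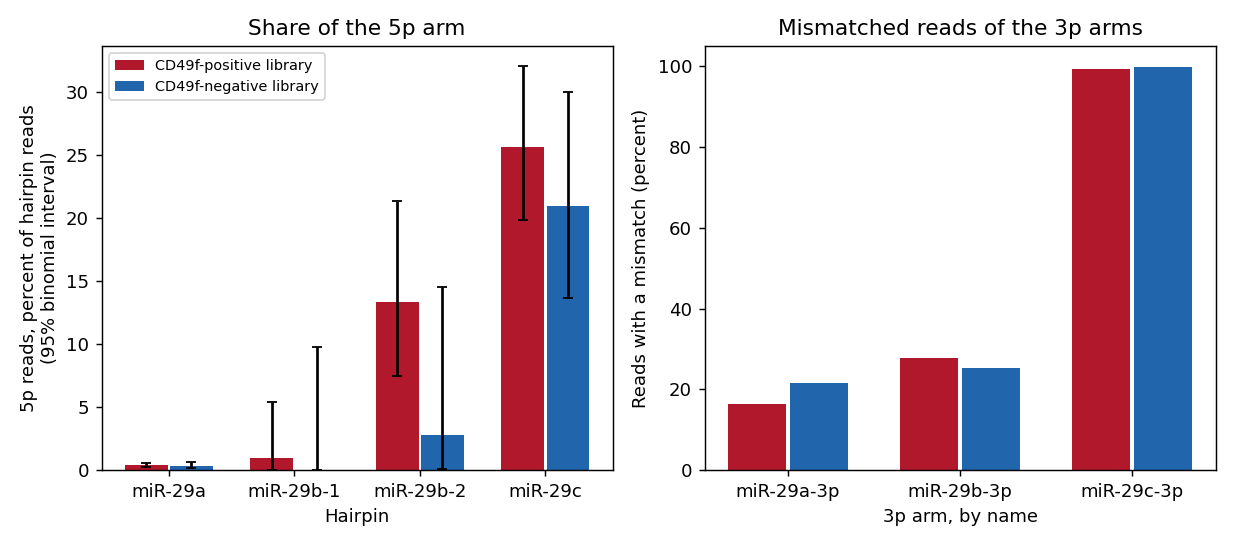
Left, 5p reads as a percent of all reads of each miR-29 hairpin with 95% binomial intervals; right, percent of reads with a mismatch for the 3p arms, with the CD49f-positive library left of the CD49f-negative library in both. With the 3p reads as divided by the authors, the miR-29c hairpin has the largest 5p share of the 4, at 25.6% and 21.0%. The miR-29b shares depend on that division, because the listed 3p read matches both miR-29b hairpins. miR-29c-3p has 99.4% and 99.7% mismatched reads.

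Among all miRNAs the 3p arms lay in the upper and middle part of the range. The 298 miRNAs with at least 100 reads had a median log2 ratio of -0.43, and 0.02 under TMM. The ratio of miR-29a-3p was above 68.1% of them, that of miR-29b-3p above 75.8% and that of miR-29c-3p above 46.6%, positions that scaling cannot change because it moves all ratios alike. The median over the 4 miR-29 names with 100 reads was -0.05, and 0.40 under TMM, but it includes miR-29a-5p with its mixed hairpins. The miRNAs nearest to miR-29a-3p in log2 ratio, out of 139 others with at least 1000 reads and over these 2 libraries, were miR-542-3p, miR-199c-3p and miR-1388-5p, each at -0.11 like miR-29a-3p itself.

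**Figure D4:**
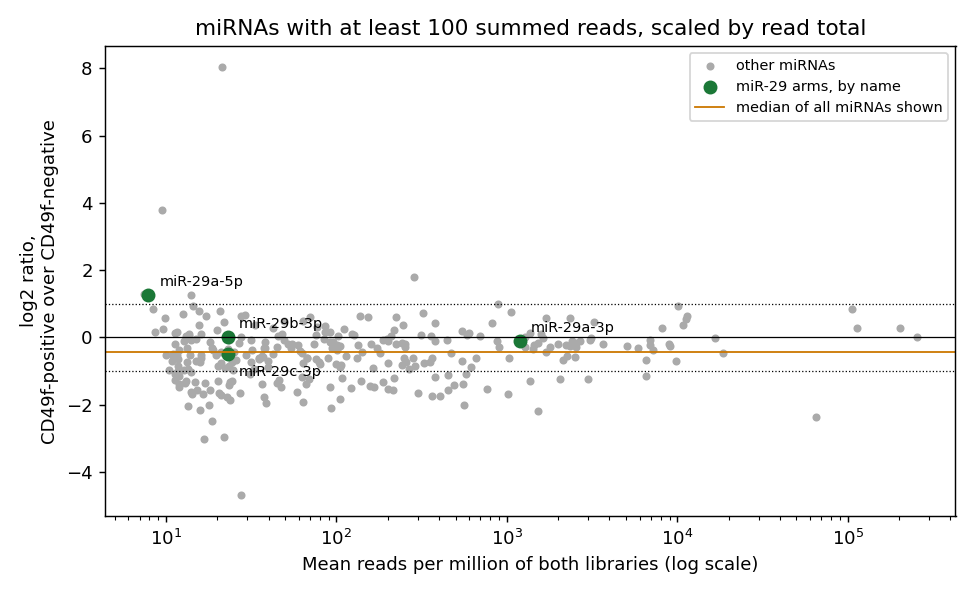
Log2 of the CD49f-positive divided by the CD49f-negative share against mean RPM (log scale) for 298 miRNAs with at least 100 summed reads, scaled by the read total; green points are miR-29 arms by name and dotted lines mark 2-fold. The 3p arms of miR-29a, miR-29b and miR-29c lie at -0.11, 0.02 and -0.51 around the median of -0.43, and miR-29a-5p alone of the miR-29 arms plotted lies past 2-fold; the height of the topmost grey point, with 0 CD49f-negative reads, depends on the 0.5 reads added.

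Other miRNAs tied to matrix genes or to fibroblasts and smooth muscle showed few calls. Of 31 arms of 16 names, 22 had at least 100 reads, of which 0 were called higher and 2 lower, beside 2.01% higher and 24.8% lower among all 298 miRNAs. Their median log2 ratio was -0.27, beside -0.43 for all miRNAs. The lower ones were miR-145-5p, at -1.24 with 10050 reads in CD49f-positive and 8864 in CD49f-negative cells, and miR-214-5p, at -1.39 with 54 and 53 reads. With TMM both calls were lost and miR-145-3p was called higher, at 1.01, beside 9.06% higher and 13.4% lower among all miRNAs. The TMM median was 0.17 beside 0.02. The members with the most reads were miR-143-3p at 0.26, miR-21-5p at -0.45, miR-30a-5p at -0.33 and miR-30d-5p at -0.25. With TMM 16 of the 22 ratios were above equal shares, beside 152 of all 298, and with the read total 4 of the 22, beside 75 of 298.

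Other miRNAs reported to target DNA methyltransferases or the TET enzymes, which oxidise methylated DNA, had no call. Of 15 arms of 8 names, 11 had at least 100 reads, with 0 called higher and 0 lower, beside 2.01% and 24.8% among all 298 miRNAs under the read total and 9.06% and 13.4% under TMM. The median was -0.19 beside -0.43 for all miRNAs, and 0.25 beside 0.02 under TMM. miR-148a-3p and miR-148b-3p, which target DNMT1 in human cells, had log2 ratios of -0.71 and -0.59, and -0.26 and -0.15 under TMM. miR-101-3p was at -0.25 and miR-143-3p, shared with the matrix group, at 0.26. miR-22 also stands in both groups.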

How the data were processed

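The authors deposited expected counts for each hairpin arm, in which a read matching more than 1 hairpin was divided among them and variants with mismatches were kept. The deposited copies of each listed sequence are whole counts. Per the file headers the GC content of a hairpin is in percent, and its folding free energy was deposited beside it. Reads had been compared with mammalian miRBase hairpins and a goat genome, per the deposited column descriptions; for aligner, release and build the sources used here give nothing. Expected counts were summed for 1808 combinations of name and arm. Entries without a miRNA name, 0.555% of CD49f-positive and 0.611% of CD49f-negative reads, were left out. Ratios are shares of named reads with 0.5 reads added, with intervals on counts rounded to whole reads. TMM (edgeR 4.0.16) and median-of-ratios (DESeq2 1.42.0) factors were taken from 592 miRNAs with at least 10 reads, in R 4.3.3; both tools supplied scaling only. Python 3.11.15 with pandas 2.3.3, numpy 2.4.6, matplotlib 3.10.9 and SciPy 1.17.1 did the rest. Every member arm was reported, with the 3 miRNAs nearest to miR-29a-3p and, of each list, the 4 members with the most reads plus every called one. Members, lists and tests were chosen with earlier results of these data known.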

Additional observations from a re-analysis of the deposited data

How the results depend on the processing

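No paired analysis was possible because each group had 1 library. Both other scalings turned the ratios of the family, of miR-29a-3p and of the 5p arms of the miR-29a and miR-29c hairpins above equal shares. With miRNAs of at least 10 reads, miR-29c-3p turned under median-of-ratios scaling but not under TMM. The other arms by name kept their direction. No new call arose, miR-29a-5p by name stayed called higher, and the cause was not tested. The family total was 0.33 (TMM) and 0.49 (median of ratios) from miRNAs with at least 10 reads, a filter chosen after seeing the data, 0.71 and 0.72 from all names with arm, and 0.17 without the 10 most abundant miRNAs. In the same order miR-29a-3p was 0.34, 0.49, 0.71, 0.73 and 0.17. miR-29b-3p was 0.46, 0.61, 0.84 and 0.85, and miR-29c-3p -0.061, 0.093, 0.31 and 0.33 under the first 4 of these. The 5p arm of the miR-29c hairpin was 0.68 and 0.69 with factors from all names. The call of miR-29a-5p by name ended with 5 reads added (0.93) and, at 1.25, under a 4-fold rule. Other settings left too few reads for any call. These were reads with no mismatch (65 and 14, at 0.68), the most abundant listed sequence (17 and 5 copies, at 0.25) and a minimum of 1000 reads. The 17 copies lay at the miR-29c hairpin and the 5 at the miR-29a hairpin, so 0.25 compares different sequences. The ratio of miR-29a-5p turned to -0.011 by hairpin, and by listed sequence or hairpin. Among all miRNAs 6 were called higher and 74 lower. The higher count was 27 (TMM) and 34 (median of ratios), 49 and 50 with factors from all names, 15 without the 10 most abundant miRNAs, 2 at known hairpins, 10 and 1 with a minimum of 10 and of 1000 reads, and 2 under a 4-fold rule. The lower count was 40 and 28, 15 and 15, 158 and 26, and 11 under the same scalings, minimums and rule. Over reads with no mismatch nearly all miR-29c-3p reads fell out by construction, since they differ from the hairpin, while 5p reads of that hairpin remained. The 5p share of the miR-29c hairpin was then 96.8% in CD49f-positive and 98.0% in CD49f-negative cells, and that of miR-29b-1 0% in CD49f-positive cells. miR-29a then made 98.1% and 97.8% of the family and miR-29c 0.0124% and 0.402% by name. Summed by hairpin these reads gave 97.8% and 97.8% for miR-29a and 0.384% and 0.402% for miR-29c. By hairpin miR-29a made 95.8% and miR-29c 2.14% of the CD49f-positive family reads, and by listed sequence 95.7% and 2.19%. Depth limits the 5p arms most, with under 100 reads per hairpin.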

Other observations

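A few miR-29 reads had no genome position in the files. In the CD49f-positive list 5 reads carried a platypus name for miR-29a-3p, and their listed sequence, tAGCACCAtttgaaatcggttaga with 3 copies, opens with the letters of miR-29c-3p. Counting them as miR-29c is part of the sum by listed sequence. In the CD49f-negative list 1 read carried the cattle name miR-29d.

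The listed miR-29b-3p read ended at different bases in the libraries. It had 20 bases and 33 copies in CD49f-positive cells, and 22 bases and 13 copies in CD49f-negative cells. These copies, listed at both miR-29b hairpins, made 17.3% and 18.5% of all miR-29b-3p reads, so most reads had other sequences, which the files do not list one by one, and whether the end variants differ between the libraries was not tested. The listed 3p reads of miR-29a and miR-29c had 21 bases in both libraries.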
